A study of Mus musculus with 8 samples.

Results

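Blood precursors kept without doxycycline were compared after 24 h and after 12 h of culture, with 2 arrays at each time, which are 4 of the 8 arrays of the series. The groups were taken from the sample titles. All cells were mouse and came from the iSOX7 line, derived from Ainv18 embryonic stem cells, where a SOX7 transgene can be switched on by doxycycline. FLK1+ cells of differentiating embryoid bodies were first grown in a liquid blast medium that held VEGF and IL6, and cells that were CD41+ and CD34- were then sorted and cultured. The groups were 24 h without doxycycline, 12 h without doxycycline, 24 h with doxycycline and 12 h with doxycycline. The cells at 24 h and at 12 h without doxycycline carried the same uninduced transgene, so that time in culture was the labelled difference between them. The arrays with doxycycline entered the fit for the estimate of spread and are given beside the others where the same time difference was measured in them. Both replicates come from this 1 cell line, and the labels do not say that they were cultured apart. The p-values therefore measure the spread of these samples only, and it may be technical.

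CD41 is the platelet integrin encoded by Itga2b, and in the embryo it also marks the first committed blood precursors, which give rise to red cells, megakaryocytes and myeloid cells. When oxygen falls, prolyl hydroxylases stop marking hypoxia-inducible factors for destruction, and these factors then switch on genes of glucose uptake, glycolysis, mitophagy and blood vessel growth, as well as the prolyl hydroxylases themselves. Metallothioneins are small cysteine-rich proteins that bind zinc and other metals, and their genes respond to metal, to glucocorticoids and to oxidative stress. Monocytes and macrophages carry lectin, Fc and pattern-recognition receptors and an oxidase complex that makes superoxide.

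Levels are log2 expression values as deposited, and a difference of 1 on this scale is a 2-fold change. Array medians lay between 6.40 and 6.61. Over 16348 probe sets the 2 arrays at 24 h without doxycycline correlated with r = 0.983 and the 2 at 12 h with r = 0.991. The second array at 24 h without doxycycline stood apart, with the values of its probe sets spread by an SD of 2.355, while the other 7 arrays had SDs of 2.433 to 2.517. Sox7, the gene the transgene carries, was at 6.96 and 6.84 at 24 h against 7.17 and 6.82 at 12 h, and the times overlapped (difference -0.10 ± 0.16, limma adjusted p = 0.96). Itga2b was at 10.84 and 10.01 at 24 h against 10.55 and 10.27 at 12 h, which put it at percentiles 94.4 to 97.3 of all probe sets on an array, a position that also depends on the probes. Cd34, the marker against which the cells were sorted before culture, was at 10.78 and 10.01 at 24 h against 10.57 and 9.62 at 12 h, at percentiles 90.4 to 97.1, so its transcript went against the negative gate at both times.

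At 24 h against 12 h, 23 probe sets rose and 1 fell at an adjusted p under 0.05 from limma with Benjamini-Hochberg adjustment, which is 0.141% and 0.00612% of those tested. The genes that rose were metallothioneins (Mt2, Mt1), genes of the hypoxia response (Bnip3, Egln1, Ndrg1, Egln3, Ero1a), the heme-degrading enzyme Hmox1, the glycogen phosphorylase Pygl, and receptors and oxidase subunits of myeloid cells (Clec5a, Pilra, Cd14, Fcgr4, Ncf1). The gene that fell was Edn1, the precursor of the vasoconstrictor endothelin. The rises spanned 2.27-fold to 17.1-fold, and in each of the 24 probe sets that passed, the 24 h arrays did not overlap the 12 h arrays. All 23 rises were positive within replicate 1 and within replicate 2, which follows from the absence of overlap. Of the 24, 22 carried 1 gene symbol, 1 carried several and 1 carried none. An unadjusted p under 0.05 was reached by 1220 probe sets, or 7.46%. In bulk RNA, more cells of a type and more RNA per cell cannot be told apart.

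**Figure D1:**
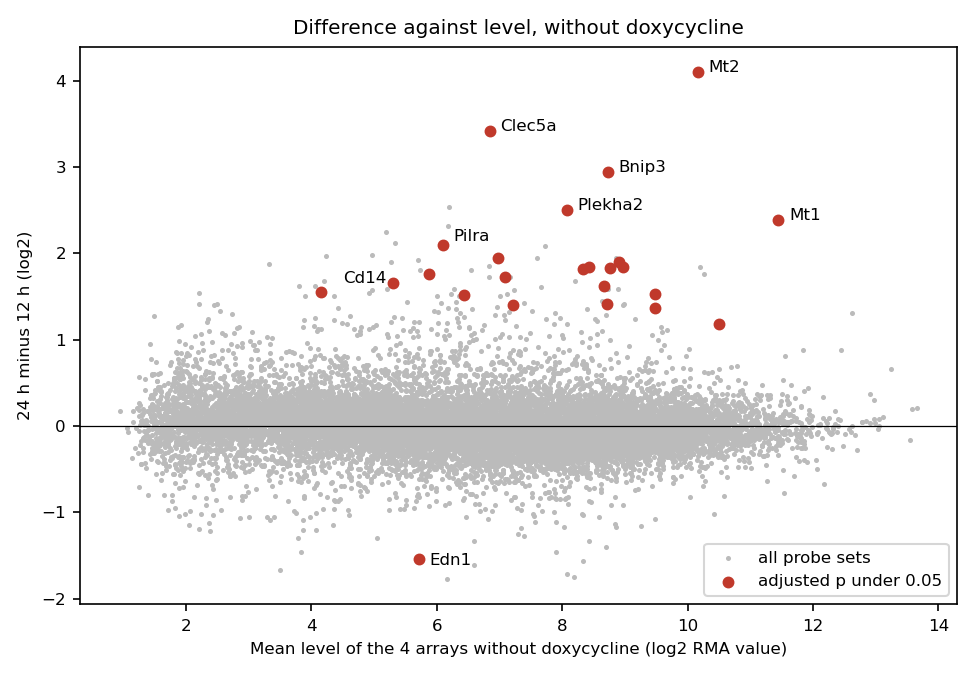
Each grey point is 1 of 16348 probe sets, placed by its mean level over the 4 arrays without doxycycline (x axis, log2 RMA value) and its difference, 24 h minus 12 h (y axis, log2), and red points passed at an adjusted p under 0.05. The red points lie above 0 at 23 probe sets and below it at Edn1, and Mt2 is the highest at 4.09.

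The number that passed depended on single arrays. It was 0 without the first 24 h array, 36 without the second, which shared 13 with the 24, and 1 and 3 without the first and the second 12 h array. Without the second 24 h array the genes Bnip3, Hmox1, Ndrg1, Ero1a, Ddit4, Plekha2, Pilra, Fcgr4, Coro2a and Edn1 and 1 probe set of no single gene no longer passed. Their adjusted p was then 0.0531 for Ero1a, Ddit4 and Pilra, 0.0561 for Bnip3, 0.0641 for Plekha2, 0.0653 for Coro2a, 0.0746 for Hmox1, 0.0801 for Ndrg1, 0.0858 for Fcgr4 and 0.0887 for Edn1. The number that passed was 0 without either 24 h array that had doxycycline, although these arrays enter only the estimate of spread. A wider count that uses no test asked for a difference of at least 1 without overlap between the 2 times, and it took 177 probe sets that were higher at 24 h (1.08%) and 47 that were lower (0.287%). The median difference over all probe sets was -0.01, at 0.04 in replicate 1 and -0.05 in replicate 2. Across probe sets, the differences of replicate 1 and replicate 2 correlated with r = 0.274, a description over values that share their arrays.

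**Figure D2:**
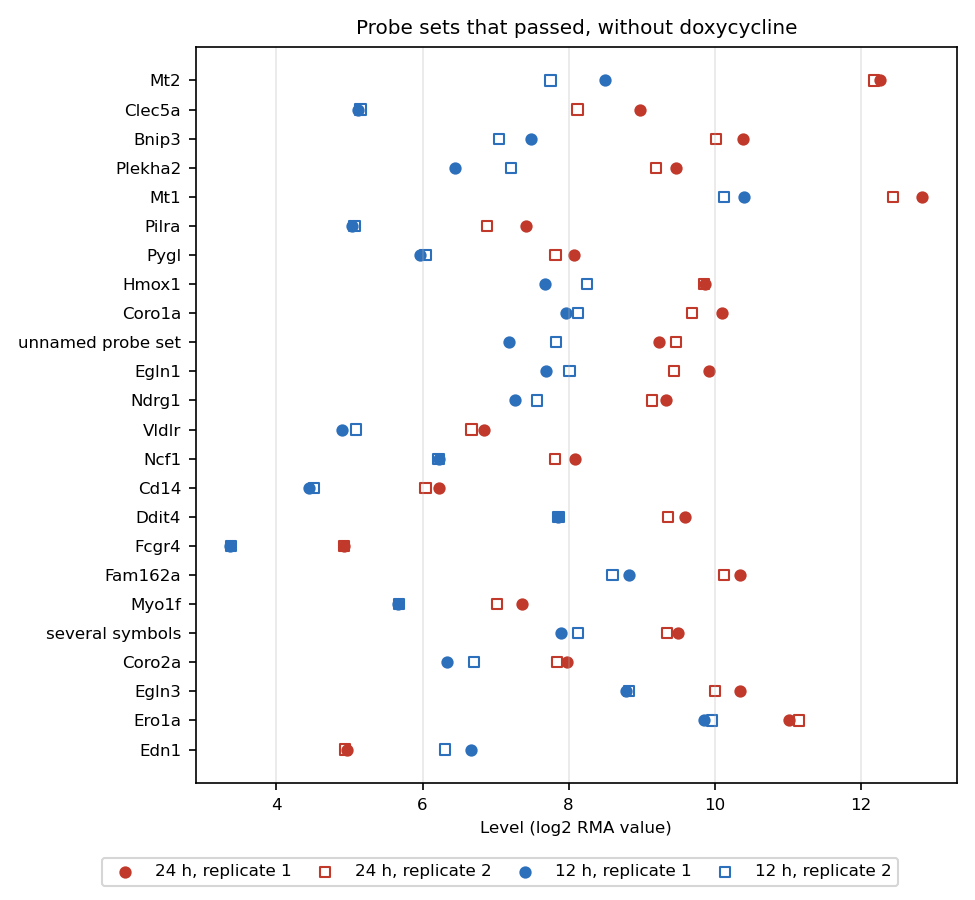
Levels (x axis, log2 RMA value) of the 24 probe sets that passed, with 24 h arrays in red and 12 h arrays in blue, circles for replicate 1 and squares for replicate 2, in order of the difference. In 23 rows both red marks lie to the right of both blue marks, and in the row of Edn1 they lie to the left.

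The largest rise was in Mt2, at 12.26 and 12.18 at 24 h against 8.50 and 7.75 at 12 h. This is a difference of 4.09 ± 0.28, or 17.1-fold (adjusted p = 0.0173). Mt1, the neighbouring metallothionein gene, was at 12.84 and 12.44 at 24 h against 10.40 and 10.12 at 12 h and rose by 2.38 ± 0.23, or 5.21-fold (adjusted p = 0.0223). For both genes the 24 h arrays lay far above the 12 h arrays. Mt1 and Mt2 are close paralogs, and whether their probe sets read each other's transcript was not tested. The other 4 measured genes of the metallothionein and zinc list did not pass. Mt3, the brain metallothionein, differed by -0.04 ± 0.18, and Mtf1, the zinc-sensing transcription factor of metallothionein genes, differed by 0.18 ± 0.15. The zinc exporter Slc30a1 differed by -0.24 ± 0.14 and the zinc importer Slc39a10 by -0.64 ± 0.13 (adjusted p = 0.786 and 0.18), each lower at 24 h on both arrays.

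The upstream sequences of Mt2 and Mt1 are shown because metal response elements, the sites of Mtf1, are known from metallothionein promoters. They are the 250 bases before the RefSeq transcription start in GRCm38.p6, at chr8:94172368-94172617 on the plus strand for Mt2 and at chr8:94178839-94179088 on the plus strand for Mt1, written 5′ to 3′ in the direction of the gene. Capitals mark the element core, TGCACNC or TGCGCNC, on either strand, which was chosen as a motif after the calls were seen.
Mt2: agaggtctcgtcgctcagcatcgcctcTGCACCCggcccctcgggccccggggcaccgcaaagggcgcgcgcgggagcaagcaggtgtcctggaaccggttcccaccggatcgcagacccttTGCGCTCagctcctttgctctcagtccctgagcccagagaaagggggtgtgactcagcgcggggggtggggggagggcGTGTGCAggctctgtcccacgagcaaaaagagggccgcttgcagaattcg
Mt1: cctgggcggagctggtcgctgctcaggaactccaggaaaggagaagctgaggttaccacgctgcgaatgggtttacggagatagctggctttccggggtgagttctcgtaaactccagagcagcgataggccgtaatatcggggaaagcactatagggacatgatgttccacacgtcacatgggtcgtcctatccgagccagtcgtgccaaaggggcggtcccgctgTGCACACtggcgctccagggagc
The Mt2 stretch held 3 matches and the Mt1 stretch held 1, and these counts depend on the RefSeq start used and do not cover sequence outside the stretches. Windows of 300 bases, from 250 before to 50 after the start, were taken for the 11765 measured genes that had an upstream sequence. TGCACNC was in 4 of the 20 windows of genes that rose (20.0%) and TGCGCNC in 7 (35.0%). Of all 14774 windows, 12.8% and 22.2% held them. The 20 include the windows of Mt2 and Mt1, the genes the motif was chosen for. A match is a description of letters and not of binding.

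Hmox1, which breaks down heme and responds to oxidative stress, was at 9.86 and 9.85 at 24 h against 7.67 and 8.25 at 12 h. It rose by 1.90 ± 0.20, or 3.72-fold (adjusted p = 0.0224). It was the 1 gene that passed among 18 measured genes of heme synthesis and iron, whose median difference was 0.31, and the 1 gene that passed among 16 antioxidant genes of the NRF2 pathway, with a median of 0.10. Of all probe sets, 0.141% passed higher. Other members of these lists stayed closer to 0 than Hmox1, such as Steap3 at 0.77 ± 0.17 (limma adjusted p = 0.234). Alas2, the first enzyme of heme synthesis in red cells, was at 0.21 ± 0.19, and Fth1, the ferritin heavy chain, at 0.08 ± 0.12. In the heme and iron list 14 of 18 differences were above 0, and 10 members were higher without overlap, against 14.6% of all probe sets.

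Glycolysis and the hypoxia response was the list with the most members that rose: 5 of 25 measured members passed higher and 0 lower, against 0.141% and 0.00612% of all probe sets. A difference of at least 1 without overlap was found in 14 of the 25, against 1.08% of all probe sets, and 24 of 25 differences were above 0. An unadjusted p under 0.05 was reached by 22 of them, all higher, against 7.46% of all probe sets. The list median was 1.18, against -0.01 for all probe sets, and 1.25 in replicate 1 and 1.18 in replicate 2. Without the second 24 h array the median was 1.22 and 3 members passed.

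Bnip3, which directs mitochondria to autophagy, was the member with the largest difference. It was at 10.39 and 10.02 at 24 h against 7.49 and 7.05 at 12 h, and it rose by 2.94 ± 0.28, or 7.65-fold (adjusted p = 0.0223). The prolyl hydroxylases that mark hypoxia-inducible factors rose in 2 genes. Egln1 was at 9.92 and 9.44 at 24 h against 7.69 and 8.01 at 12 h, a rise of 1.83 ± 0.20 (adjusted p = 0.0244). Egln3 was at 10.34 and 10.00 at 24 h against 8.78 and 8.82 at 12 h, a rise of 1.37 ± 0.16 (adjusted p = 0.0298). In both genes the gap between the times was wider than the gap between the arrays of 1 time. Ndrg1, a cytosolic protein long used as a marker of low oxygen, was at 9.33 and 9.14 at 24 h against 7.26 and 7.57 at 12 h and rose by 1.82 ± 0.21 (adjusted p = 0.0295). Ero1a, the oxidase that forms disulfide bonds in the endoplasmic reticulum, was at 11.02 and 11.15 at 24 h against 9.85 and 9.96 at 12 h and rose by 1.18 ± 0.13 (adjusted p = 0.0263).

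The members that follow did not pass and were chosen after their values were seen. Adm, which encodes the vasodilator peptide adrenomedullin, was at 7.91 and 7.01 at 24 h against 4.51 and 5.34 at 12 h (difference 2.54 ± 0.50, adjusted p = 0.16). Among glycolytic enzymes, Aldoc was at 8.90 and 8.23 at 24 h against 6.40 and 6.84 at 12 h (1.95 ± 0.26, adjusted p = 0.0604). Pfkl, the liver form of phosphofructokinase, was at 11.25 and 10.98 at 24 h against 9.49 and 9.05 at 12 h (1.84 ± 0.27, adjusted p = 0.0652). Each of these genes was higher on both 24 h arrays than on either 12 h array. The lactate exporter Slc16a3 differed by 1.76 ± 0.25 and Tpi1, triose phosphate isomerase, by 1.31 ± 0.18 (adjusted p = 0.0652 and 0.0604). The glucose transporter Slc2a1 differed by 0.88 ± 0.23 and the vascular growth factor Vegfa by 0.94 ± 0.18 (adjusted p = 0.305 and 0.159). Not every classical target was higher at 24 h: the carbonic anhydrase Car9 was at 4.11 and 3.94 at 24 h against 4.49 and 4.20 at 12 h (-0.32 ± 0.15), and the enolase Eno2 differed by 0.04 ± 0.29.

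**Figure D3:**
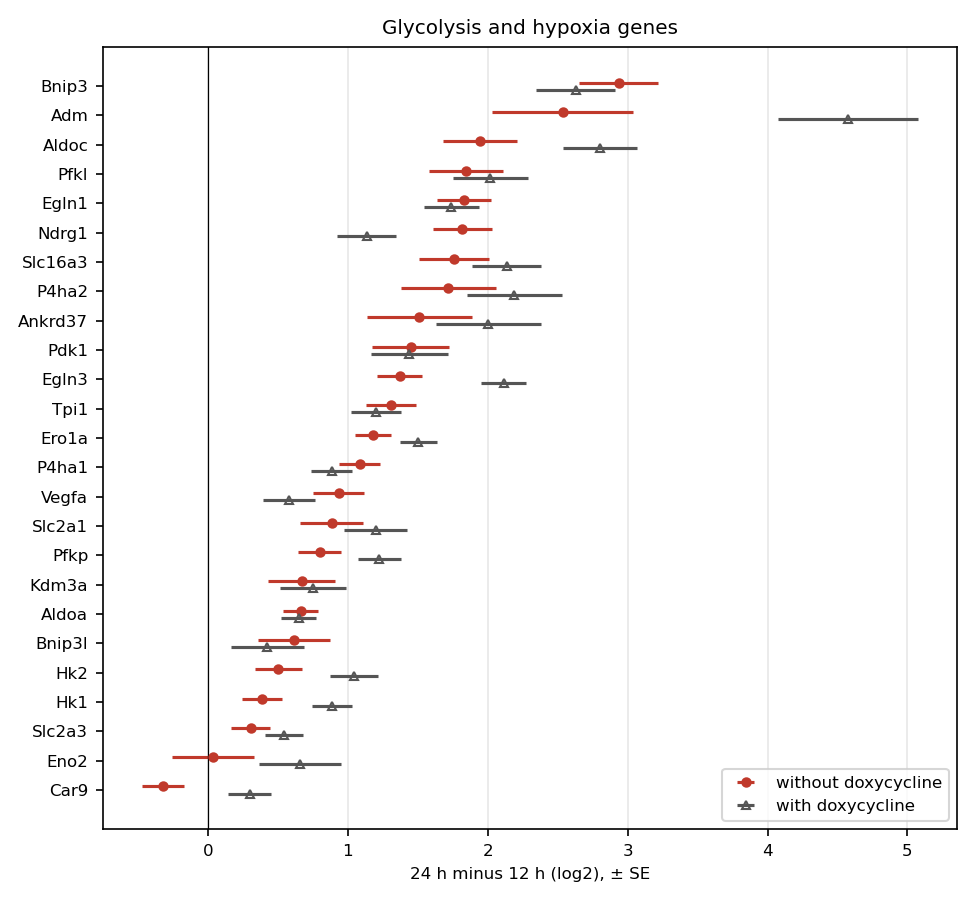
Difference, 24 h minus 12 h (x axis, log2), of the 25 measured genes of glycolysis and hypoxia, red circles without doxycycline and grey triangles with it, with bars for ± 1 standard error of the limma fit (2 arrays a group). Without doxycycline 24 points lie to the right of 0, from Bnip3 at 2.94 downwards, and Car9 lies to its left at -0.32.

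Of the 5 genes of this list that rose, Bnip3, Egln3, Ero1a and Egln1 had upstream sequences in the table used here, and these are shown with the core of the hypoxia response element. They are the 250 bases before the RefSeq start in GRCm38.p6, in the direction of the gene, at chr7:138909507-138909756 on the minus strand for Bnip3, chr12:54203875-54204124 on the minus strand for Egln3, chr14:45318573-45318822 on the minus strand for Ero1a and chr8:124949255-124949504 on the minus strand for Egln1. Capitals mark ACGTG on either strand, again a motif chosen after the calls were seen.
Bnip3: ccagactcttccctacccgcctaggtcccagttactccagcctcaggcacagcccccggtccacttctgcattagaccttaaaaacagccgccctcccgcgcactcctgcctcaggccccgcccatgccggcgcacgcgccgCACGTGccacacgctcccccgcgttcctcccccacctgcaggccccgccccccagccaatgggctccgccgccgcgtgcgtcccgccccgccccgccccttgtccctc
Egln3: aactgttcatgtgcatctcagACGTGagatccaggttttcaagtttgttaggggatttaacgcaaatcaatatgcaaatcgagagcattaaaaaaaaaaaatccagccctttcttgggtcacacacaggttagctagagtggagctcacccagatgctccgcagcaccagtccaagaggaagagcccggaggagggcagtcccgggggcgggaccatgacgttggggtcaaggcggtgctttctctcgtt
Ero1a: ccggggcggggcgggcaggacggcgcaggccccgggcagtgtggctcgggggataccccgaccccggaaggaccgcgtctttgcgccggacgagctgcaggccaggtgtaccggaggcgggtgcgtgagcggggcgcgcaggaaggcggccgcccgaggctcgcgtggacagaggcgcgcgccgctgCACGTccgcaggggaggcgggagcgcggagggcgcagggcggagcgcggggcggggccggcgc
Egln1: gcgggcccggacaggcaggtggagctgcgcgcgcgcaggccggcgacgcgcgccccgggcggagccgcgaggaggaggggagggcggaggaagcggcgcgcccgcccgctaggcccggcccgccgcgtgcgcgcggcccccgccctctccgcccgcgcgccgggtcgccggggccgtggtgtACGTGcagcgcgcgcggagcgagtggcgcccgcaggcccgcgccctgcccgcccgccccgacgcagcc
Bnip3 held ACGTG once on each strand, overlapping in CACGTG, and the other 3 stretches held it once each. The core was in 53.3% of the 30 windows of 300 bases of the hypoxia list, from 22 genes, and in 40.0% of the 20 windows of genes that rose, against 22.5% of all 14774 windows. CACGTG, which contains the core, was in 3.33% and 5.0% of them, against 8.66% of all windows. Among motifs of other factors, GAGGAAG, a core of sites of the myeloid factor PU.1, was in 13.3% and 30.0%, against 13.2% of all windows. CCAAT, the site of NF-Y, was in 36.7% and 20.0%, against 37.5%. The core was not the only motif more frequent in the hypoxia list than in all windows. CACACCC (KLF) was in 20.0% and 5.0%, against 8.42%, and CACCCCA (SREBP) in 20.0% and 10.0%, against 7.9%. TGACTCA (AP-1) was in 13.3% and 5.0%, against 4.51%, and TTTGAA (CHR) in 16.7% and 0.0%, against 14.3%. The metal response cores were also more frequent in the hypoxia list. TGCGCNC was in 36.7% and 35.0%, against 22.2%, and TGCACNC in 16.7% and 20.0%, against 12.8%. Motifs of GATA, E2F, ETS, CREB and ATF4 were less frequent in the list than in all windows. Both sets of windows include those of the genes shown.

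Several other genes that rose act in metabolism and in signalling under stress. Pygl, which releases glucose units from glycogen, was at 8.07 and 7.82 at 24 h against 5.96 and 6.04 at 12 h and rose by 1.95 ± 0.16 (3.85-fold, adjusted p = 0.0223). Ddit4, an inhibitor of the growth regulator mTORC1, was at 9.59 and 9.36 at 24 h against 7.85 and 7.86 at 12 h and rose by 1.62 ± 0.17 (adjusted p = 0.0244). Vldlr, a receptor for lipoproteins, was at 6.84 and 6.67 at 24 h against 4.90 and 5.09 at 12 h and rose by 1.76 ± 0.15 (adjusted p = 0.0223). Ddit4 and Vldlr were the members that passed among 23 measured genes of the integrated stress response and amino acid metabolism, and 0 members fell. Of all probe sets, 0.141% rose and 0.00612% fell. The list median was 0.23, and the core members of that response, the transcription factors Atf4 and Ddit3, did not pass, at 0.15 ± 0.14 and 0.32 ± 0.29. Plekha2, a pleckstrin-homology protein that binds membrane phosphoinositides, was at 9.47 and 9.19 at 24 h against 6.45 and 7.21 at 12 h and rose by 2.50 ± 0.25 (5.66-fold, adjusted p = 0.0223).

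Genes of monocytes and macrophages were higher at 24 h in larger number than all probe sets, though few passed. Of 33 measured members 2 passed higher and 0 lower, against 0.141% and 0.00612% of all probe sets. A difference of at least 1 without overlap was found in 7 of the 33, against 1.08% of all probe sets, and an unadjusted p under 0.05 in 18, against 7.46%. The list median was 0.66, at 0.88 in replicate 1 and 0.45 in replicate 2. Ncf1, a cytosolic subunit of the phagocyte oxidase, was at 8.08 and 7.81 at 24 h against 6.22 and 6.22 at 12 h and rose by 1.73 ± 0.17 (adjusted p = 0.0223). Cd14, the co-receptor for bacterial lipopolysaccharide, was at 6.23 and 6.04 at 24 h against 4.44 and 4.52 at 12 h and rose by 1.66 ± 0.16 (adjusted p = 0.0223). Both were tight within each time.

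Receptors of myeloid cells outside that list also rose. Clec5a, an activating C-type lectin, was at 8.97 and 8.12 at 24 h against 5.12 and 5.15 at 12 h and rose by 3.41 ± 0.35, or 10.6-fold (adjusted p = 0.0223). Pilra, an inhibitory immunoglobulin-like receptor, was at 7.41 and 6.88 at 24 h against 5.03 and 5.07 at 12 h and rose by 2.10 ± 0.24 (adjusted p = 0.0298). Fcgr4, a receptor for antibody Fc, was at 4.92 and 4.93 at 24 h against 3.37 and 3.38 at 12 h and rose by 1.55 ± 0.18 (adjusted p = 0.0295). Coro1a, an actin-binding coronin, rose by 1.84 ± 0.18 and Myo1f, an unconventional myosin, by 1.52 ± 0.17 (adjusted p = 0.0223 and 0.0263). The pan-leukocyte phosphatase Ptprc, one of the precursor markers, did not pass. It was at 7.28 and 5.98 at 24 h against 5.08 and 4.58 at 12 h, with a wide gap between the 24 h arrays.

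The macrophage genes were not uniformly higher. Clec4n, a C-type lectin, was at 7.83 and 6.83 at 24 h against 5.69 and 4.34 at 12 h (2.31 ± 0.61, adjusted p = 0.335), with a wide gap within each time. The lineage transcription factor Spi1 differed by 0.84 ± 0.32 and the receptor Csf1r by 0.78 ± 0.15 (adjusted p = 0.564 and 0.143). The complement gene C1qa differed by 0.08 ± 0.22, the mannose receptor Mrc1 by 0.01 ± 0.27 and the scavenger receptor Cd163 by 0.00 ± 0.15. Adgre1, which encodes the macrophage antigen F4/80, differed by 0.75 ± 0.26 and the lysosomal glycoprotein Cd68 by 0.80 ± 0.29. These members other than Ncf1 and Cd14 were chosen after their values were seen. The mean level of 5 macrophage markers was 6.43 and 5.87 at 24 h against 5.20 and 5.19 at 12 h. What part a change in cell composition had in the myeloid genes was not tested.

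Granulocyte genes gave 0 that passed of 19 measured, with 6 at an unadjusted p under 0.05 (7.46% of all probe sets), a median of 0.20 and 4 that were higher by at least 1 without overlap (1.08% of all probe sets). Prtn3, a serine protease of early granules, was at 6.95 and 6.78 at 24 h against 5.25 and 5.75 at 12 h (1.36 ± 0.19, adjusted p = 0.0632). Mpo, the myeloperoxidase of the same granules, was at 8.47 and 7.06 at 24 h against 6.08 and 5.74 at 12 h (1.85 ± 0.45, adjusted p = 0.293). Both were higher on the first 24 h array than on the second. The integrin and adhesion list also gave 0 that passed of 19 (limma, 7 at an unadjusted p under 0.05, against 7.46% of all probe sets), with Itgb2, the common chain of leukocyte integrins, at 8.74 and 8.33 at 24 h against 7.12 and 7.34 at 12 h (1.30 ± 0.18, adjusted p = 0.0646).

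Erythroid genes, which were bright at both times, gave 0 that passed of 26 measured, although 9 had an unadjusted p under 0.05, all higher, against 7.46% of all probe sets, 24 differences were above 0 and the median was 0.32. At least 1 without overlap was reached by Pklr, the red cell pyruvate kinase, Ermap, an erythroid membrane protein, and Rhd, a rhesus blood group protein. Pklr was at 8.78 and 8.15 at 24 h against 6.97 and 6.74 at 12 h (1.61 ± 0.22, adjusted p = 0.0604). Without the second 24 h array Pklr was the member that passed, with a difference of 1.92 and an adjusted p of 0.0422. The 2 measured globins were embryonic ones: Hbb-y was at 13.85 and 13.68 at 24 h against 13.72 and 13.40 at 12 h, and Hba-x differed by 0.20 ± 0.14. The erythroid transcription factors Gata1 and Klf1 differed by 0.21 ± 0.25 and 0.27 ± 0.18.

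Megakaryocyte and platelet genes followed the replicate number. In all 15 measured genes the first array was above the second at 24 h and at 12 h, and likewise at both times with doxycycline. By limma 0 of 15 passed and 2 had an unadjusted p under 0.05 (7.46% of all probe sets), and the median was 0.33, at 0.61 in replicate 1 and 0.11 in replicate 2. Without the second 24 h array, which leaves the first array alone at 24 h against both at 12 h, it was 1.38, and without the first 24 h array it was -0.29. Pf4, the platelet chemokine, was at 10.05 and 7.48 at 24 h against 7.22 and 6.15 at 12 h (2.08 ± 0.94, adjusted p = 0.703). Gp5, a platelet membrane glycoprotein, was at 9.39 and 7.28 at 24 h against 8.78 and 7.23 at 12 h. The mean level of 3 megakaryocyte markers was 8.44 and 6.46 at 24 h against 6.47 and 5.81 at 12 h.

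Lists of the cell cycle and of growth held no member that passed and had small values. All 25 measured genes of the G2 and M phases had differences above 0, with a median of 0.26, 0 that passed and 2 at an unadjusted p under 0.05, against 7.46% of all probe sets. Ccnb2, a mitotic cyclin, was at 10.38 and 10.16 at 24 h against 9.78 and 9.41 at 12 h (0.68 ± 0.17, adjusted p = 0.298). The 25 S phase genes had a median of 0.05, with 18 above 0. Genes of ribosome biogenesis lay below 0 in 17 of 18, with a median of -0.25, and 17 of the 18 were lower without overlap between the times, against 14.3% of all probe sets. Of these 4 had an unadjusted p under 0.05, against 7.46% of all probe sets. Nop58, a nucleolar protein that modifies ribosomal RNA, was at 10.80 and 10.59 at 24 h against 11.10 and 11.10 at 12 h (-0.41 ± 0.13, adjusted p = 0.504). All 18 respiratory chain genes were above 0, with a median of 0.14, and the 24 cell cycle inhibitors and p53 targets lay above 0 in 13 and below it in 10. The 18 Myc and proliferation regulators lay above 0 in 8 and below it in 10, and Myc itself was at 11.68 and 11.67 at 24 h against 12.01 and 11.86 at 12 h (-0.26 ± 0.13, adjusted p = 0.742).

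On the lower side, Edn1 was at 4.96 and 4.94 at 24 h against 6.67 and 6.31 at 12 h and fell by 1.54 ± 0.18, or 2.91-fold (adjusted p = 0.0295). The next candidates did not pass in this fit. Rnd2, a small GTP-binding protein, was at 8.73 and 8.63 at 24 h against 9.93 and 9.75 at 12 h (-1.16 ± 0.17, adjusted p = 0.0652). Nefl, the light chain of neurofilaments, was at 7.47 and 6.96 at 24 h against 8.86 and 8.99 at 12 h (-1.71 ± 0.25, adjusted p = 0.0652). Clic6, a chloride intracellular channel protein, differed by -1.11 ± 0.16 with the same adjusted p. Cap2, Myo10, Stard8, Tspan12, Olfr745, Unc5c, Ajuba and Pwwp3b made up the 12 and had differences from -1.41 to -1.02 (adjusted p = 0.103 to 0.238). In all 12 genes the 24 h arrays lay below the 12 h arrays, which the rule for naming them required.

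Genes of TGF-beta and BMP signalling had the lowest median of the 40 lists, -0.36, with 19 of 22 members below 0, 0 that passed and 5 lower members at an unadjusted p under 0.05 (7.46% of all probe sets in either direction). Without the second 24 h array that median was -0.15. Ccn1, a matricellular protein, was at 7.10 and 7.51 at 24 h against 8.51 and 9.61 at 12 h (-1.75 ± 0.46, adjusted p = 0.335). Id3, a target of BMP signalling that blocks helix-loop-helix factors, was at 7.01 and 6.48 at 24 h against 8.17 and 7.68 at 12 h (-1.18 ± 0.35, adjusted p = 0.429). Smad6, an inhibitor of the same pathway, was at 7.68 and 7.60 at 24 h against 8.38 and 8.29 at 12 h (-0.69 ± 0.16, adjusted p = 0.249). The 29 endothelial genes had a median of -0.18 and 0 that passed. That median was -0.13 in replicate 1 and -0.37 in replicate 2, 0.16 without the second 24 h array and -0.69 without the first. The mean level of 6 endothelial markers was 9.04 and 7.60 at 24 h against 9.23 and 8.25 at 12 h, while that of 7 smooth muscle and mesenchyme markers was 7.43 and 8.52 at 24 h against 7.49 and 8.71 at 12 h, following the replicate number. The part of these cells in the results was not tested.

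**Figure D4:**
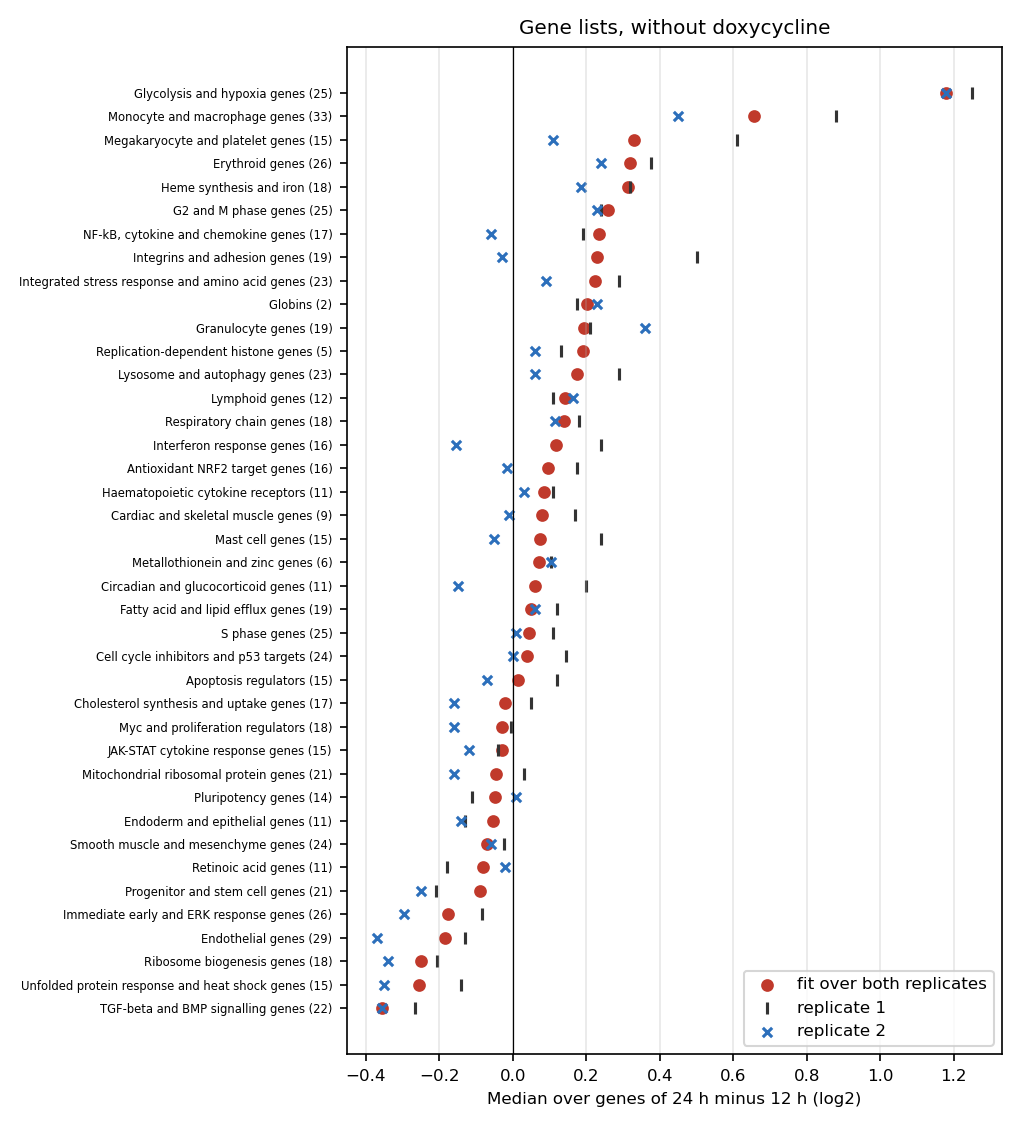
Median difference, 24 h minus 12 h without doxycycline (x axis, log2), over the measured genes of each of 40 lists (number in brackets), as a red circle for the fit, a black bar for replicate 1 and a blue cross for replicate 2. The glycolysis and hypoxia list stands at 1.18, the monocyte and macrophage list at 0.66 and the TGF-beta and BMP list at -0.36, and the replicates lie apart for the megakaryocyte list, at 0.61 and 0.11.

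The same time difference was measured in the cells given doxycycline, on arrays that enter the differences above only through the estimate of spread. There 26 probe sets rose and 4 fell (0.159% and 0.0245%). Of the 23 probe sets that rose without doxycycline, 12 also rose with it, and all 23 were above 0 with it. The 2 calls share 1 estimate of spread per probe set, so they are not independent. The median difference of the 23 was 1.82 without doxycycline and 1.51 with it. Over all probe sets the 2 time differences correlated with r = 0.442, which describes values scaled together. In the glycolysis and hypoxia list 5 of 25 rose without doxycycline and 9 of 25 with it, with medians of 1.18 and 1.20. At least 1 without overlap was reached by 14 without doxycycline and 16 with it, and by that rule 0.893% of all probe sets were higher and 0.416% lower with doxycycline. Adm, at 7.91 and 7.01 at 24 h against 4.51 and 5.34 at 12 h without doxycycline, was at 9.40 and 9.05 at 24 h against 3.96 and 5.34 at 12 h with it, where it rose by 4.58 ± 0.50 (adjusted p = 0.023). Edn1 fell by 1.54 ± 0.18 without doxycycline and by 2.62 ± 0.18 with it (limma adjusted p = 0.0295 and 0.00482). Its 24 h levels were alike, at 4.96 and 4.94 without doxycycline and 5.00 and 4.99 with it. At 12 h it was at 6.67 and 6.31 without doxycycline and at 7.44 and 7.78 with it.

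**Figure D5:**
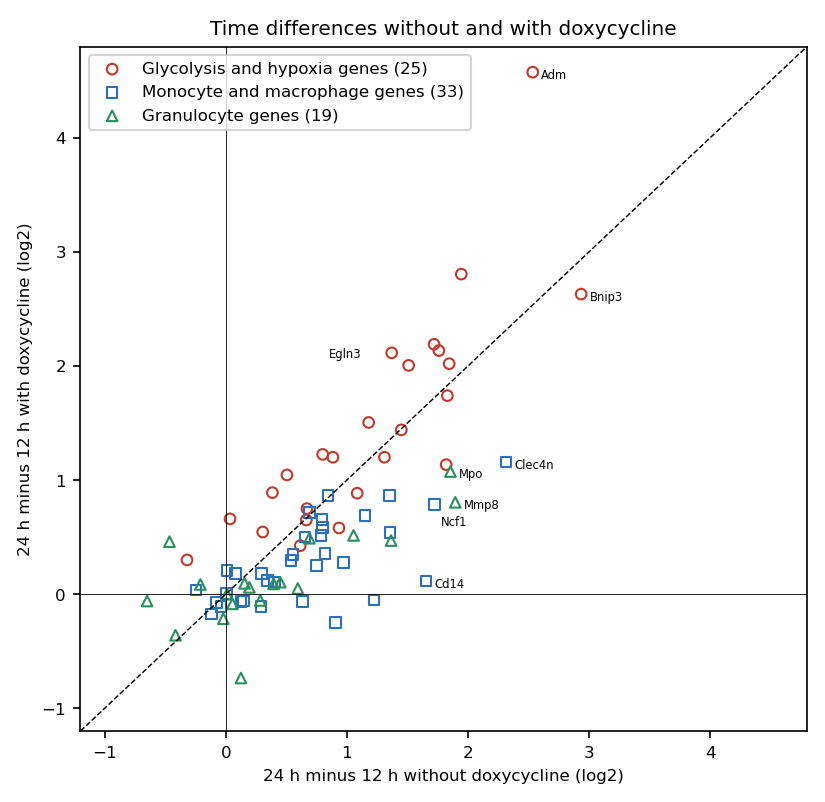
Difference, 24 h minus 12 h (log2), without doxycycline (x axis) and with it (y axis), for genes of glycolysis and hypoxia (red circles), monocytes and macrophages (blue squares) and granulocytes (green triangles), with a dashed line where both are equal. Bnip3 lies at 2.94 and 2.63, Adm at 2.54 and 4.58, and Cd14 at 1.66 and 0.12.

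No difference of the time effects passed. The monocyte and macrophage list had a median of 0.66 without doxycycline and 0.21 with it, and 2 of 33 members rose without it and 0 with it. Cd14 and Fcgr4 were named for their rank in that test. Cd14 differed by 1.66 ± 0.16 without doxycycline and by 0.12 ± 0.16 with it, and Fcgr4 by 1.55 ± 0.18 and 0.22 ± 0.18. In the test of the difference of the time effects over 16348 probe sets, 0 passed by limma, 505 had an unadjusted p under 0.05 (3.09%), and the smallest adjusted p was 0.919, at Fgfr3. Cd14, Olfr969, Svs2, Ehhadh and Fcgr4 had the smallest unadjusted p among genes whose signed time difference was higher without doxycycline than with it. Ehhadh was nearly flat without doxycycline (0.045 ± 0.14) and lower at 24 h with it (-1.03 ± 0.14). Fgfr3, Gja5, Apoe, Defb10 and Gpr83 had it among those whose signed difference was higher with doxycycline. Olfr969, Svs2 and Defb10 were dim, at means of 2.505, 3.43 and 2.205 at 24 h without doxycycline, against 1.335, 2.655 and 2.725 at 12 h. Fgfr3, a growth factor receptor, was at 6.74 and 6.79 at 24 h against 7.13 and 6.90 at 12 h without doxycycline (-0.25 ± 0.15) and differed by 1.49 ± 0.15 with it. Gja5, an arterial gap junction protein, differed by 0.06 ± 0.31 without doxycycline and by 2.54 ± 0.31 with it, and Apoe, an apolipoprotein of macrophages among other cells, by -0.49 ± 0.16 and 0.73 ± 0.16.

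The remaining lists held no member that passed, and their medians lay between -0.26 and 0.24. The lowest of these was the list of the unfolded protein response and heat shock, with 11 of 15 members below 0 and Hsph1, a heat shock protein, at 10.01 and 9.79 at 24 h against 10.57 and 10.62 at 12 h (-0.69 ± 0.15, adjusted p = 0.238). Immediate early and ERK response genes were below 0 in 20 of 26, with Egr1 at -0.82 ± 0.25, while Ier3, a survival gene, was higher on both 24 h arrays (1.22 ± 0.18, adjusted p = 0.0659). The circadian repressor Bhlhe40, which low oxygen also induces, differed by 1.25 ± 0.24 (adjusted p = 0.154) and rose by 2.64 ± 0.24 with doxycycline (adjusted p = 0.0167). Among chemokines Ccl3 was at 10.19 and 9.47 at 24 h against 8.10 and 7.68 at 12 h (1.94 ± 0.61, adjusted p = 0.466). The blood stem and progenitor genes had a median of -0.09, with the transcription factor Myb at 8.86 and 8.90 at 24 h against 9.17 and 9.58 at 12 h (-0.49 ± 0.16, adjusted p = 0.504). The medians of the 2 replicates had opposite signs in the lists of mast cells, cardiac and skeletal muscle, pluripotency, mitochondrial ribosomal proteins, cholesterol, interferon response, NF-kB and chemokines, apoptosis, integrins, circadian genes and NRF2 targets.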

How the data were processed

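Total RNA was measured on Affymetrix arrays, 1 sample per array, in 4 groups of 2. The authors deposited log2 values of expression, made with RMA in Affymetrix Power Tools per the submitters' processing notes, which give no versions. RMA removes background, scales arrays to each other and sums up probes, and any further filter or build is not given in the sources used here. The 16348 probe sets were named from the platform annotation (14785 with 1 symbol, 950 with several, 613 with none, 0 symbols updated), and a gene was represented by its probe set with the highest mean. With no detection calls, dim probe sets have no known background, and precision is limited by the number of arrays.

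The fit used limma 3.58.1 under R 4.3.3 (lmFit, then eBayes), gave each of the 4 groups a mean and took in all 8 arrays. Residual degrees of freedom were 4, with 3.44 prior ones. Differences are given ± standard error from this fit with 2 arrays per group. Benjamini-Hochberg adjustment ran over all probe sets, with a threshold of 0.05. The pipeline was tested on simulated data with normal, independent noise. It recovered 50.5% of changes of 1 on the log2 scale and 89.2% of changes of 2, and called 5.5 unchanged probe sets on average. A difference near 1 that did not pass may therefore be a missed change.

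The comparison and the 40 gene lists (677 of 825 entries measured, genes in several lists counted in each) were chosen with earlier results of these data known. Genes were named by a rule: the 12 largest rises and falls that passed without overlap, filled to 12 by the smallest p among differences of at least 1, then list members that passed (up to 6, otherwise 4 of the smallest p), 5 in each direction for the difference of time effects, and Sox7, Itga2b and Cd34. Other genes were chosen after their values were seen. Upstream sequences are from RefSeq (GRCm38.p6) and covered 17 of the genes that rose. Alternatives were a repeated quantile normalization, median centring, eBayes with a trend or robust, no dimmest 33.3%, 1 probe set per gene, array weights, the replicate number as a block, only the 4 arrays compared, and leaving out each array.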

Additional observations from a re-analysis of the deposited data

How the results depend on the processing

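The count that passed at 24 h against 12 h without doxycycline, 24 as reported, was 61 after a repeated quantile normalization, 44 with an intensity trend, 51 without the dimmest 33.3%, 0 with array quality weights and 1 in a fit of only the 4 arrays compared. With 1 array left out it ranged from 0 to 36. The titles number the replicates alike, and deviations from the group means correlated by number with r = 0.298 to 0.4279 over the 6 pairs of groups. The comparison holds 2 pairs, and the labels do not say what the number marks. A replicate block gave 130 that passed (109 higher, 21 lower), among them all 24. With it Rnd2, Nefl, Clic6, Myo10, Tspan12 and Ajuba passed as lower (limma adjusted p = 0.0192, 0.0291, 0.0164, 0.0367, 0.015 and 0.0346). As higher passed 13 of 25 members of the hypoxia, 5 of 33 of the macrophage, 4 of 26 of the erythroid and 3 of 19 of the granulocyte list. These counts stand against 109 of all 16348 probe sets, more than the 23 of the main fit. With doxycycline, 30 as reported, the count was 49, 62, 58 and 88 under the repeated normalization, the trend, without the dimmest 33.3% and with array weights, 123 with the replicate block, and 0 to 29 with 1 array left out. The difference of the time effects gave 0 under each alternative run. The cause of these changes was not tested, except that smaller fits have fewer residual degrees of freedom. Of 2866 comparisons over 170 named genes, 2664 kept direction and side of the threshold, 141 no longer passed, 40 newly passed and 21 changed sign, none in a gene that passed. The changes of sign came with 1 array left out, except for Ehhadh after the repeated normalization (-0.00625) and Itga2b after median centring (-0.0025). Over the arrays left out these genes ranged as follows: Cd2 from 0 to 0.53, Tbx5 from -0.015 to 0.255, Mvk from -0.595 to 0.075, Ebp from -0.095 to 0.475, H1f1 from -0.44 to 0.09, H1f3 from -0.145 to 0.525, Crabp2 from -0.93 to 0.11, Arntl from -0.095 to 0.535, Ehhadh from -0.01 to 0.1, Gja5 from -0.375 to 0.495, Gpr83 from -0.335 to 0.225, Cd34 from -0.175 to 0.775, Itga2b from -0.4 to 0.43 and Sox7 from -0.27 to 0.08. Dim genes lack a known background, so differences at low levels are the least certain.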

Other observations

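Glycogen genes beside Pygl were looked at after its rise was seen, so their choice followed the values. The glycogen synthase Gys1 was at 10.02 and 9.54 at 24 h against 8.59 and 8.50 at 12 h (1.24 ± 0.20, adjusted p = 0.0937). Ppp1r3b, which targets a phosphatase to glycogen, was higher on both 24 h arrays than on either 12 h array (1.43 ± 0.22, adjusted p = 0.0878). The branching enzyme Gbe1 differed by 0.91 ± 0.20 (adjusted p = 0.222) and Ugp2, which makes the activated glucose, by 0.08 ± 0.20. By limma Pygl passed without doxycycline, and with doxycycline Pygl, Ppp1r3b and Gbe1 rose by 1.84, 2.26 and 1.72 (adjusted p = 0.0116, 0.019 and 0.0274).

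Olfactory receptor genes, which blood cells are not known for, made up 711 of the 16348 probe sets, or 4.35%. They were 16 of the 177 probe sets that were higher by at least 1 without overlap (9.04%) and 7 of the 47 that were lower (14.9%). Their median level was 2.78 and 2.91 on the 24 h arrays against 2.77 and 2.71 on the 12 h arrays.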
